A study of Mus musculus with 48 samples.

Results

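The comparison described here set the livers of mice under timed sleep restriction (TSR) against those of control mice at ZT19, in the late dark phase (ZT, Zeitgeber time, counts hours from lights on). It used 3 arrays from TSR mice and 3 from control mice, 6 of the 24 liver arrays and of the 48 arrays in the series, chosen by their labels alone, and all 24209 probe sets that carry a gene symbol. All mice were males of the strain labelled Bl6J, aged 10 to 12 weeks, under a light-dark cycle. Gentle handling stopped the TSR mice from sleeping between ZT0 and ZT6 on 5 days, which were followed by 2 days of free sleep and another 5 days of handling, per the labels, whereas control mice were left undisturbed. By the study's methods the collection of tissue began on the evening before the last of these sessions, so the ZT19 mice may have had 1 session fewer. Total liver RNA was hybridised to Affymetrix Mouse Gene 1.0 ST arrays, and values are the normalised linear signals deposited by the authors. Nothing in the sources used here says whether each array held the RNA of 1 mouse, so p-values measure the spread between arrays. Whole liver was profiled, so fewer cells of a type and less RNA per cell cannot be told apart.

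Mice feed mainly in the dark phase, when the liver takes up glucose, runs glycolysis and builds fat and glycogen. The circadian clock, a loop in which Clock and Arntl (Bmal1) activate their own repressors Per and Cry, times many of these genes. Pklr encodes liver pyruvate kinase, the enzyme of the last step of glycolysis, and its promoter carries a carbohydrate response element that binds ChREBP with Mlx. Ribosomal protein genes supply the ribosome and often hold small nucleolar RNAs (snoRNAs) in their introns. Most snoRNAs guide chemical modification of ribosomal RNA.

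Several arrays stood apart in ways that touch every result below. The 3 control arrays at ZT19 carried the same pattern as control replicate 3 at ZT7 and TSR replicate 3 at ZT1, arrays of other groups. This pattern was measured outside ZT19, as the mean log2 deviation of those 2 arrays from the other 2 arrays of their own groups. The labels number the control arrays 46, 47 and 48 and the TSR arrays 2, 9 and 12, so treatment and array numbering cannot be told apart. TSR replicate 3 carried transcripts of the exocrine pancreas. Among probe sets with a mean signal above the median, the median within-group SD was 0.078 in the control group and 0.166 in the TSR group on the log2 scale. The 11 hepatocyte markers summed to between 92043 and 106256 signal units on the 6 arrays. The deposited detection calls were not used as a filter, since 61 probe sets were called absent on all 3 control arrays with signals over 1000 on each.

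Differences were fitted with limma over the 8 liver group means, and a probe set is termed called where its p, adjusted by Benjamini-Hochberg over all 24209 probe sets, was under 0.05. A second fit added 1 term for the 5 arrays that stood apart, termed the set-apart term here. Since all 3 control arrays at ZT19 carry it, the term was estimated only from the 2 arrays of other groups. It assumes the same strength on the ZT19 control arrays. A difference with the term is thus the difference without it plus the pattern, so the 2 are not separate observations. All differences are TSR minus control on the log2 scale.

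The liver promoter of Pklr is shown first. This gene was a marker given for the comparison and carried almost none of the shared pattern, but it was not called. The stretch comes from RefSeq on GRCm38.p6, chr3:89136438-89136622 on the plus strand, and covers the 185 bases before the transcription start, with the 17-base match to CACGGGNNNNNCCCGTG in capitals.
Pklr: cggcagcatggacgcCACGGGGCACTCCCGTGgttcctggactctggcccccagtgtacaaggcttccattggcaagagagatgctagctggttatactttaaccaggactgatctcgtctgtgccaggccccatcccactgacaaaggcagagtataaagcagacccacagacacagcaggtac
The match starts at base -170. These letters read the same on both strands and were taken from the known element of this gene, so its match was fixed in advance. They occurred in 1 of 32851 RefSeq promoter windows (0.00304%), each from 250 bases before to 50 after a start. This count only describes how rare the letters are. The Pklr signal was 5288, 5713 and 5167 on the control arrays and 4288, 3706 and 4502 on the TSR arrays. Every TSR array lay below every control array, although the deposited calls gave Pklr as present on 1 of the 6. The log2 difference was -0.38 ± 0.12 (SE, n = 3 per group), with an adjusted p of 0.065, so the gene was not called. The shared pattern was -0.02 for Pklr, and with the set-apart term the difference was -0.39 ± 0.17 (adjusted p = 0.54). Without TSR replicate 3 the adjusted p was 0.077. At ZT13 the same contrast was -0.48 with an adjusted p of 0.025, whereas it was 0.01 at ZT1 and -0.04 at ZT7.

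**Figure D1:**
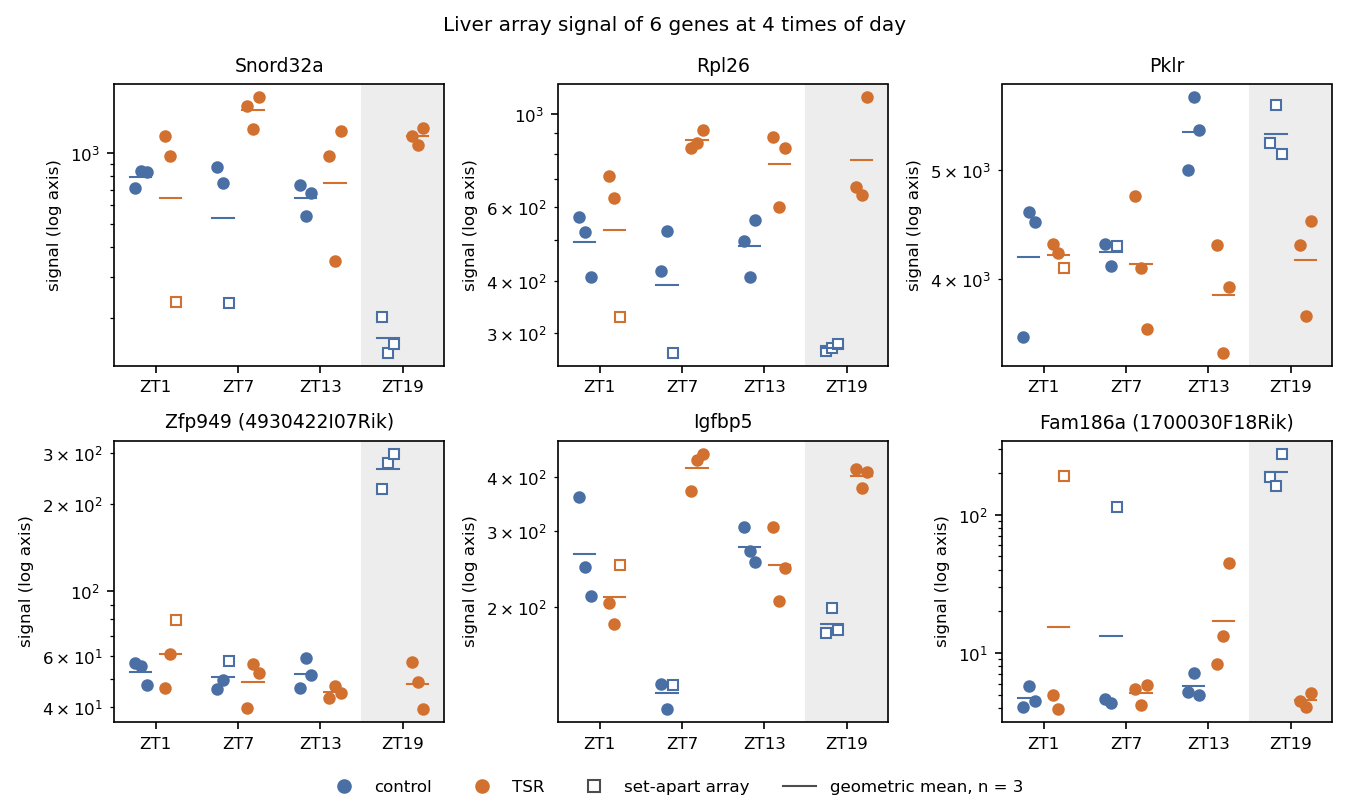
Array signal on a log axis for 6 genes in liver at 4 times of day, with control mice in blue and TSR mice in orange, 1 symbol per array and a line at the geometric mean of 3. Open squares mark the 5 arrays that stood apart. Snord32a and Rpl26 are low and Fam186a is high on all 5 squares, whereas Zfp949 is high (226 to 299) on the ZT19 control arrays alone. The Pklr squares at ZT1 and ZT7 lie close to the other arrays of their groups, as does the Igfbp5 square at ZT7. At ZT1 the Igfbp5 square is at 250, above 205 and 183 on the other TSR arrays.

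Across the transcriptome, 1312 probe sets were called at ZT19, 5.42% of those tested. Of these, 739 were higher in TSR mice (3.05% of all) and 573 were lower (2.37%). The median size of a called log2 difference was 0.62, and 248 differences exceeded 1. The groups did not overlap for 1306 of the 1312, but a call with 3 arrays per group favours such separation. This count is therefore not further support for the calls. Over all probe sets the median log2 difference was 0.018.

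Most called differences ran opposite in sign to the pattern of the arrays that stood apart. The ZT19 difference and the pattern of the ZT7 and ZT1 arrays correlated across the 24209 probe sets at r = -0.64, and at r = -0.74 across the 12790 with a mean signal above the median. These are correlations across probe sets, which are not independent replicates. The pattern had the opposite sign to the difference for 1236 of the 1312 called probe sets (94.2%) and for 65.2% of all probe sets. Where the pattern was at most 0.1 in size, 174 of 6670 probe sets were called (2.61%), and where it was over 0.8, 173 of 788 were (22.0%).

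With the set-apart term, 1 probe set was called (0.00413% of those tested), and 2213 had an unadjusted p under 0.05 against 5616 without it. The sign of the difference was kept for 1261 of the 1312 called probe sets (96.1%), with a median of 43.8% of the difference left. The median SE rose from 0.157 to 0.216 with the term. Without TSR replicate 3, 264 probe sets were called (1.09%), 105 higher and 159 lower, of which 215 were among the 1312. Leaving out control replicate 1, 2 or 3 left 73, 37 or 34 calls, and leaving out TSR replicate 1 left 474. In all 6 fits that each left out 1 array of ZT19, 24 of the calls were kept.

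**Figure D2:**
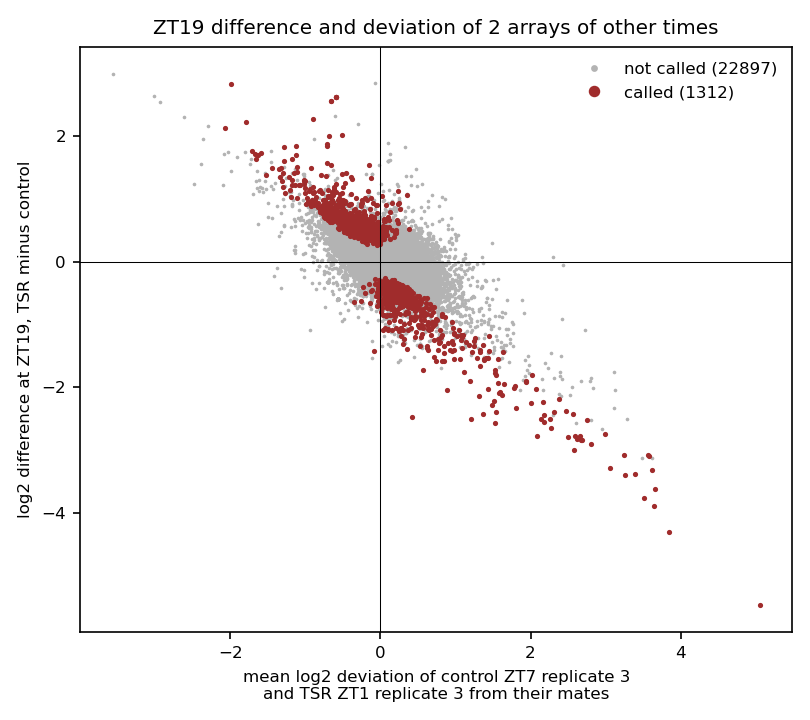
Each point is a probe set, with the mean log2 deviation of control ZT7 replicate 3 and TSR ZT1 replicate 3 from the other arrays of their groups on the x axis and the log2 difference at ZT19 on the y axis. The 1312 called probe sets (red) lie mostly in the quadrants where the 2 values have opposite signs.

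The deepest falls were in genes with a high signal on the other arrays that stood apart too. By a rule that asked for a call, a bright higher group and no overlap, the 12 deepest were Fam186a (listed as 1700030F18Rik), Ttc24, Gm10383, Krt36, Olfr322 (Olfr216), Ms4a10, Foxf1 (Foxf1a), Plag1, Usp17ld (Dub2a), Magef1, Ppp1r32 (4930579J09Rik) and Cd180. Among them, Krt36 encodes a hair keratin, Foxf1 a transcription factor of mesenchyme and Cd180 a surface receptor of B cells and macrophages. Their log2 differences ran from -5.47 to -3.08. The deposited calls gave 6 of the 12 as absent on all 6 arrays, and a second probe set of Foxf1 gave -0.03.

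Fam186a had signals of 186, 160 and 276 on the control arrays and 4.47, 4.09 and 5.11 on the TSR arrays. It was called absent on all 6, so the fitted log2 difference of -5.47 ± 1.15 (adjusted p = 0.018) gives its place in the ranking and is not read as a measured fold. Its signal at ZT7 was 4.63 and 4.31 on control replicates 1 and 2 and 114 on replicate 3. At ZT1 it was 4.94 and 3.92 on TSR replicates 1 and 2 and 189 on replicate 3. Both arrays of other groups that stood apart were thus far above the arrays beside them, as the ZT19 control arrays were.

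For all 12 the pattern was positive, between 3.06 and 5.05. Their log2 differences with the term lay between -0.47 and 0.48, and 6 changed sign. Without TSR replicate 3, 2 of the 12 were called, Fam186a and Ttc24. High signals were not confined to the arrays that stood apart. On TSR replicates 2 and 3 at ZT13, Usp17ld was at 2454 and 366 and Magef1 at 635 and 659. On the same arrays Fam186a was at 13.2 and 44.6 and Ttc24 at 18.2 and 27.7. The set-apart term does not cover these arrays.

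Ctdspl, a phosphatase of the RNA polymerase II tail, fell by 2.28 ± 0.34 on the log2 scale (adjusted p = 0.0055). Its signal was 548, 557 and 684 on the control arrays and 113, 132 and 122 on the TSR arrays. It was 494 on control replicate 3 at ZT7 and 286 on TSR replicate 3 at ZT1, and 111 to 164 on every array that did not stand apart. The difference with the term was -0.80 ± 0.20 (adjusted p = 0.44). This gene was chosen for description after its values were seen.

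Zfp949 (listed as 4930422I07Rik), a zinc finger gene, was the 1 call that outlasted the set-apart term. Its signal was 226, 276 and 299 on the control arrays and 57.0, 48.6 and 39.2 on the TSR arrays. On the 21 arrays other than these controls it lay between 39.2 and 79.3, so the ZT19 control arrays were the high ones. The log2 difference was -2.47 ± 0.18 (adjusted p = 4.2e-07), and -2.05 ± 0.23 with the term (adjusted p = 0.001). The contrast at ZT1, ZT7 and ZT13 was 0.20, -0.06 and -0.21. It was called under each alternative that was run, with a highest adjusted p of 0.035.

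The steepest rises were led by small RNA genes. By the same rule the 12 largest were Snord32a, Rnu2 (now Rnu2-10), Snord118, Snord16a, G430095P16Rik, Gjb2, Snhg1, Mt1, Snord33, Mocs3, Vaultrc5 and Gm5577, with log2 differences of 1.76 to 2.83. Rnu2 encodes the U2 RNA of the spliceosome, Snord118 the U8 RNA of ribosomal RNA processing, Snhg1 a host transcript of snoRNAs and Vaultrc5 a vault RNA. Gjb2 encodes a gap junction protein of hepatocytes, and Mt1 a metallothionein that binds zinc and copper. The deposited calls gave 1 of the 12, Mocs3, as absent on all 6 arrays and 10 as present on all 6. The pattern was negative for all 12, from -2.07 to -0.51. With the term all 12 stayed above 0, at 0.05 to 2.05, and none was called. Without TSR replicate 3, 5 of the 12 were called.

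Snord32a, a box C/D snoRNA, had the largest of these rises. Its signal was 202, 143 and 156 on the control arrays and 1181, 1075 and 1280 on the TSR arrays. The groups were far apart, with a log2 difference of 2.83 ± 0.52 (adjusted p = 0.012). On the other arrays that stood apart it was 233 (control ZT7) and 235 (TSR ZT1), against 743 to 1184 on the remaining arrays of those groups. Among arrays that did not stand apart, TSR replicate 2 at ZT13 was the lowest, at 349. The difference with the set-apart term was 0.84 ± 0.44 (adjusted p = 0.57), and without TSR replicate 3 it was 2.77 (adjusted p = 0.039). It was not called without control replicate 2 (adjusted p = 0.060) or control replicate 3 (adjusted p = 0.058).

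Snord32a lies within Rpl13a, a gene that also holds Snord33, Snord34 and Snord35a. The Rpl13a signal was 1618, 1520 and 1662 in control mice and 1960, 1841 and 3208 in TSR mice, a log2 difference of 0.50 (adjusted p = 0.045) that was 0.25 and not called without TSR replicate 3 (adjusted p = 0.14). Snord33 was at 180, 127 and 135 in control mice and at 373, 467 and 820 in TSR mice, a log2 difference of 1.85 (adjusted p = 0.0055). Snord34 rose by 1.14 (adjusted p = 0.019), whereas Snord35a gave -0.28 (adjusted p = 0.39). The small RNAs of 1 host gene therefore did not carry equal differences, and their patterns ranged from -1.99 for Snord32a to 0.31 for Snord35a. With the term Snord33 was at 1.13 ± 0.35 (adjusted p = 0.52).

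Snord16a lies within Rpl4 and rose by 2.27 (adjusted p = 0.012), from 96.4, 54.0 and 68.2 to 206, 275 and 704. Rpl4 itself gave 0.02 (adjusted p = 0.93). Snord87 rose from 53.8, 47.0 and 48.1 to 100, 98.7 and 103, a log2 difference of 1.02 (adjusted p = 0.012) and 0.82 ± 0.26 with the term (adjusted p = 0.52). Rnu2 was at 191, 160 and 1777 on the TSR arrays and Snord118 at 40.2, 39.4 and 437, so TSR replicate 3 was far above the other TSR arrays for both. Without that array neither was called (adjusted p of 0.073 and 0.069). At ZT7 the same contrast was 2.45 for Rnu2 and 2.78 for Snord118 (adjusted p of 0.035 and 0.020). At ZT13 it was 2.25 and 2.39 (adjusted p of 0.045 and 0.033), and at ZT1 neither was called.

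Among 40 snoRNA genes recognised by name, 9 rose and none fell, beside 3.05% of all probe sets that rose. Their median log2 difference was 0.38, beside 0.018 for all probe sets. The term took the median to 0.54, beside 0.072, and left no limma call. With it 11 were higher at an unadjusted p under 0.05, beside 2213 of all 24209 probe sets in either direction. Without TSR replicate 3 there were 5 calls and a median of 0.21, and without control replicate 2 or 3 there was 1 call. The median of the list was 0.41 at ZT1, 0.36 at ZT7 and 0.52 at ZT13. Of the 15 that lie within ribosomal protein genes 4 rose, and of the other 25, 5 rose. This list was put together after the values had been seen.

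Gjb2 rose from 411, 363 and 331 to 1857, 1567 and 1410 on its brighter probe set (log2 difference 2.13, adjusted p = 0.038), and was at 0.05 with the term. Its other probe set gave 0.04, so the probe sets of this gene disagreed. The other probe sets of Snhg1 likewise ran from -0.73 to 1.87. Mt1 was at 241, 283 and 314 in control mice and at 1248, 1869 and 585 in TSR mice, a log2 difference of 2.00 (adjusted p = 0.036). For Mt1 the difference with the term was 1.31 ± 0.76 (adjusted p = 0.61). Its neighbour Mt2 gave 0.45 (adjusted p = 0.34), with overlapping groups.

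**Figure D3:**
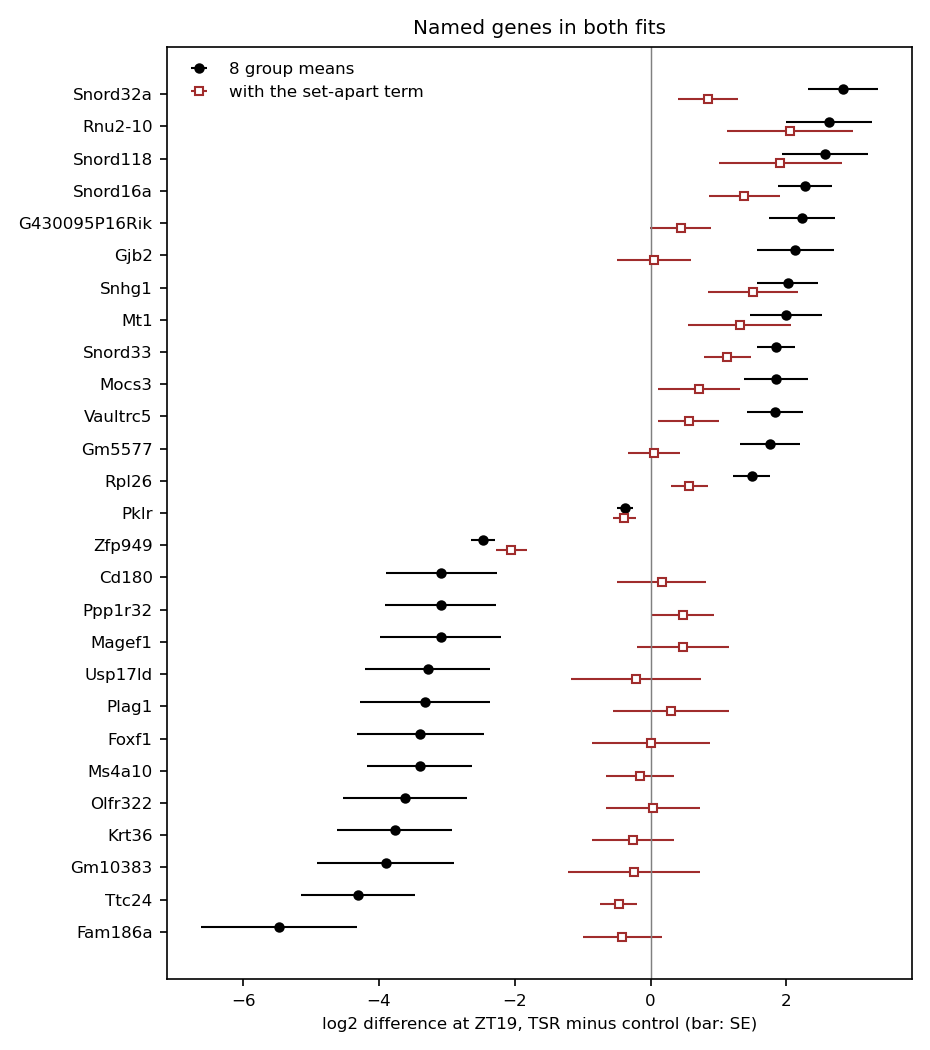
Log2 difference at ZT19, TSR minus control, for the 12 largest rises, the 12 deepest falls, Pklr and Rpl26, and Zfp949, with bars for the SE. Filled points are the fit of the 8 group means and open squares the fit with the set-apart term, in which the falls other than Zfp949 lie between -0.47 and 0.48.

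Ribosomal protein genes were higher in TSR mice as a group. Of 74 measured cytosolic ribosomal proteins, 38 rose and none fell, beside 3.05% of all probe sets that rose. A positive difference was found for 71 of them and for 52.7% of all probe sets, and their median log2 difference was 0.51. Rpl26, a protein of the large subunit, was at 271, 277 and 283 on the control arrays and at 670, 640 and 1095 on the TSR arrays. The groups did not overlap, and the difference was 1.49 ± 0.27 (adjusted p = 0.012). Rpl12 rose from 854, 869 and 847 to 1412, 1466 and 1970 (0.90, adjusted p = 0.0064). Rps14 of the small subunit rose by 0.94 (adjusted p = 0.0081) and Rpl23a by 1.05 (adjusted p = 0.012), each with every TSR array above every control array. These values are of the brightest probe set of each gene. The others gave 0.11 to 0.92 for Rpl12, 1.20 for Rps14 and -0.33 to 0.87 for Rpl23a. By the deposited calls the brightest probe set of Rps14 was absent on all 6 arrays, and Rpl26 was present on 1. Rpl23a was present on all 6, and Rpl12 on 3 control and 2 TSR arrays.

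The median pattern of the ribosomal proteins was -0.38. With the set-apart term their median was 0.15, beside 0.072 for all probe sets, and none was called by limma. An unadjusted p under 0.05 was found for 8, all higher, beside 2213 of all 24209 probe sets in either direction. Of the 74, 59 stayed above 0. Rpl26 was then at 0.57 ± 0.27 (adjusted p = 0.55) and Rpl12 at 0.49 ± 0.17 (adjusted p = 0.52). Without TSR replicate 3 the median was 0.43 and 5 were called. Rpl26 was not called without control replicate 2 (adjusted p = 0.056) or control replicate 3 (adjusted p = 0.055). Leaving out control replicate 1, 2 or 3 left 5, 2 or 2 calls, and leaving out TSR replicate 1 left 22. Across the day, Rpl26 was also higher in TSR mice at ZT7 (log2 difference 1.15, adjusted p = 0.023), and the median of the list was 0.11 at ZT1, 0.52 at ZT7 and 0.32 at ZT13. On the arrays that stood apart at other times Rpl26 was at 269 (control ZT7) and 327 (TSR ZT1), close to the ZT19 controls.

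Subunits of the respiratory chain and ATP synthase shifted the same way. Of 72 measured genes 19 rose and none fell, beside 3.05% of all probe sets that rose, with a median log2 difference of 0.30. Uqcrq of complex III rose from 934, 805 and 929 to 1519, 1420 and 2169 (0.91, adjusted p = 0.016). Ndufs8 of complex I rose by 0.92 (adjusted p = 0.020) and Cox7b of complex IV by 0.67 (adjusted p = 0.024). With the term the median was 0.08 and none was called by limma. An unadjusted p under 0.05 was found for 6, all higher, beside 2213 of all 24209 probe sets in either direction. None was called without TSR replicate 3 either, where the median was 0.19, nor without any 1 of the control arrays. The median of the list was 0.04 at ZT1, 0.32 at ZT7 and 0.25 at ZT13. Uqcrq was also called at ZT7 (0.86, adjusted p = 0.017) and ZT13 (0.71, adjusted p = 0.032). Cox7b was called at ZT7 (0.73, adjusted p = 0.015), whereas Ndufs8 was called at none of these times.

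Proteasome subunits gave 5 rises and no fall among 31, beside 3.05% of all probe sets that rose. Their median was 0.15, and 0.16 with the set-apart term, beside 0.072 for all probe sets with it. None was called with the term, and 1 was called without TSR replicate 3. Psmb3, a subunit of the catalytic core ring, rose from 400, 400 and 443 to 713, 715 and 824 (log2 difference 0.86, adjusted p = 0.012), and was at 0.28 ± 0.14 with the term (adjusted p = 0.55). Splicing factors gave 3 falls and no rise among 35, beside 2.37% of all probe sets that fell, with a median of -0.05. The median was 0.06 with the term, and none was called with the term or without TSR replicate 3. Hnrnpf fell by 0.47 (adjusted p = 0.022), from 2457, 2476 and 2358 to 1708, 1841 and 1730, and was at -0.17 with the term.

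Among 16 heat shock chaperones, Chordc1, a co-chaperone of Hsp90, fell by 0.66 (adjusted p = 0.044), and 13 of the 16 had a negative difference. The chaperones of the endoplasmic reticulum gave no limma call among 20, with a median of -0.17. Of these, 5 were lower at an unadjusted p under 0.05, beside 5616 of all 24209 probe sets in either direction. Acute phase genes gave 1 call among 20, Apcs (serum amyloid P), which rose from 544, 374 and 558 to 1010, 1654 and 816, a log2 difference of 1.20 (adjusted p = 0.038) that was 0.30 with the term. Mt1 was the 1 call among 18 genes that respond to glucocorticoids. A single call in a list of this size is near the 5.42% called among all probe sets, in the heat shock and acute phase lists too.

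**Figure D4:**
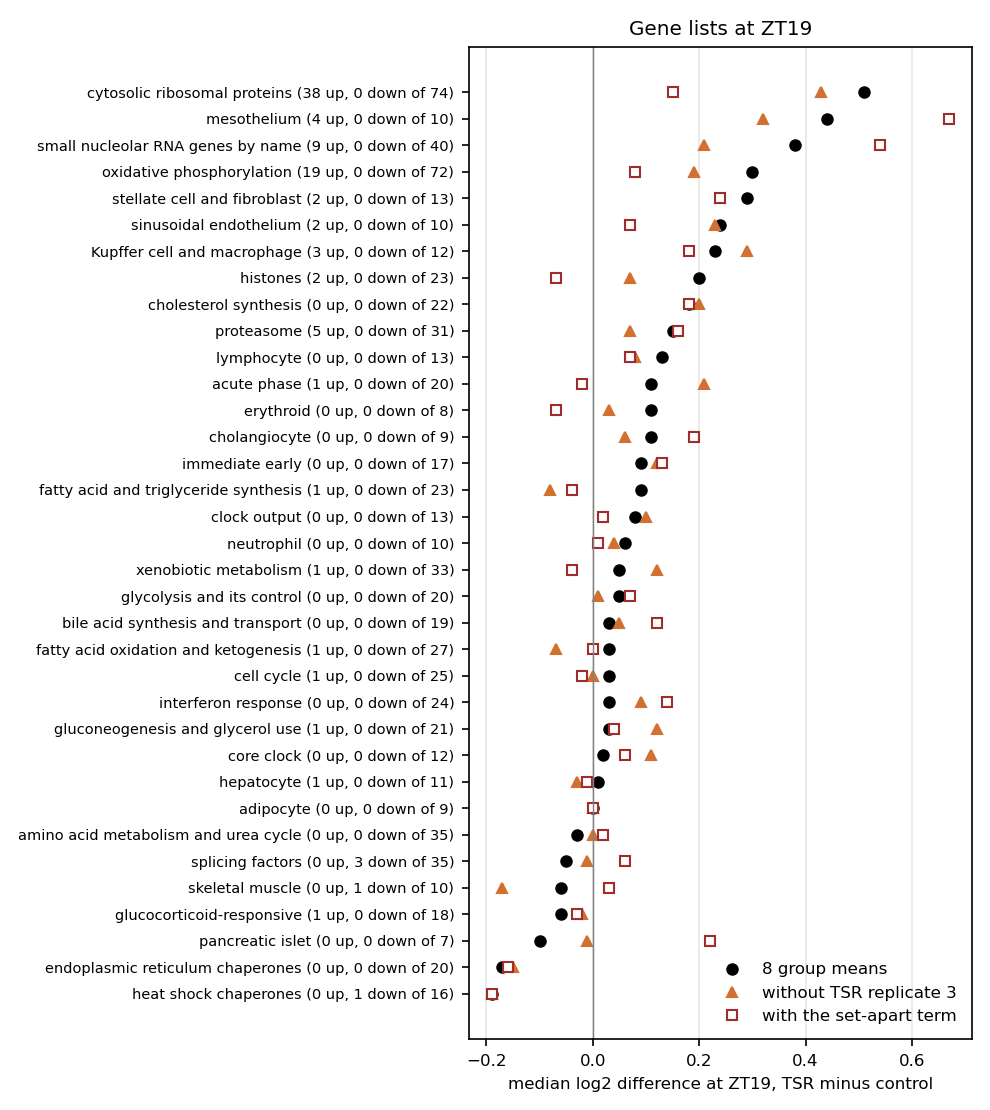
Median log2 difference at ZT19, TSR minus control, over the measured genes of each gene list, with the numbers called higher and lower beside its name. Circles are the fit of the 8 group means, triangles the fit without TSR replicate 3 and open squares the fit with the set-apart term, and the ribosomal proteins go from 0.51 to 0.43 and 0.15.

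Metabolic genes showed few differences at this time. Over 7 lists of glucose, glycerol, lipid, bile acid and amino acid metabolism, 3 of 165 genes rose and none fell, beside 5.42% of all probe sets called, and the list medians lay between -0.03 and 0.18. None of the 20 measured genes of glycolysis and its control was called by limma, Pklr included. An unadjusted p under 0.05 was found for 3 higher and 3 lower, beside 5616 of all 24209 probe sets. The 22 genes of the cholesterol synthesis list described here gave no limma call, with a median of 0.18, and 19 had a positive difference, while 20 did with the term. At an unadjusted p under 0.05, 4 were higher and none lower, again beside 5616 of 24209 probe sets in either direction. Pnpla3, a lipase of lipid droplets, rose by 1.11 (adjusted p = 0.045) and was at 0.46 with the term. Hadh of fatty acid oxidation and Mdh1, the cytosolic malate dehydrogenase, each rose by 0.33 (adjusted p of 0.040 and 0.028).

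Of the 17 genes that the study plots or names for its liver measurements none was called by limma, and Pklr had the smallest adjusted p. At an unadjusted p under 0.05, 3 were higher and 3 lower, beside 5616 of all 24209 probe sets. Irs2, an adaptor of the insulin receptor, was at 530, 509 and 540 in control mice and at 361, 360 and 476 in TSR mice. The groups did not overlap, and the log2 difference of -0.41 had an adjusted p of 0.16 and was -0.12 with the term. Aqp9, the glycerol channel of hepatocytes, gave -0.24 (adjusted p = 0.13), and 0.04 with the term. Slc2a2, the liver glucose transporter, gave -0.17, and Pdk4, an inhibitor of pyruvate dehydrogenase, 0.23.

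No core clock gene was called by limma among 12, and none of 13 clock output genes was. At an unadjusted p under 0.05, 1 core clock gene was higher and 2 output genes were lower, beside 5616 of all 24209 probe sets. Arntl was at 858, 875 and 797 on the control arrays and at 1096, 742 and 638 on the TSR arrays, so the TSR arrays lay on both sides of the controls. The difference was -0.07 ± 0.39. Nr1d1 (Rev-erb alpha), a repressor of Arntl, was at 128, 122 and 135 in control mice and at 168, 268 and 275 in TSR mice. Its groups did not overlap, with a log2 difference of 0.85 ± 0.40 (adjusted p = 0.21), and it was the core clock gene with an unadjusted p under 0.05. Npas2, an activator related to Clock, gave -0.60 (adjusted p = 0.30), and Cry1 -0.35 (adjusted p = 0.29).

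A further set of genes, whose differences changed little or grew with the set-apart term, was picked for description after the values were seen. The shared pattern was 0.23 for Igfbp5 and 0.02 for Alox15. Igfbp5, a binding protein of insulin-like growth factors, was at 174, 200 and 177 in control mice and at 416, 376 and 411 in TSR mice. The log2 difference was 1.13 ± 0.17 (adjusted p = 0.0055), and 1.36 ± 0.24 with the set-apart term (adjusted p = 0.15). At ZT7 the same contrast was 1.72 (adjusted p = 6e-05), and it was -0.33 at ZT1 and -0.14 at ZT13. Alox15, a lipoxygenase, went from 70.3, 80.5 and 74.5 to 115, 144 and 223 (1.04, adjusted p = 0.022), and was at 1.06 ± 0.35 with the term (adjusted p = 0.52). It was not called without TSR replicate 3 (adjusted p = 0.073). Dhrs9, a retinol dehydrogenase, fell by 0.73 (adjusted p = 0.040), from 174, 209 and 237 to 121, 119 and 131, with a pattern of 0.02. Its difference was -0.71 ± 0.30 with the term (adjusted p = 0.52), and it was not called without TSR replicate 3 (adjusted p = 0.075).

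Some markers of other cell types rose, beside 3.05% of all probe sets that did. Mesothelial markers, genes of the lining of the liver surface, gave 4 rises and no fall among 10, with a median of 0.44, and of 0.67 with the set-apart term. Upk3b was at 48.7, 66.4 and 60.2 in control mice and at 111, 103 and 132 in TSR mice (log2 difference 0.98, adjusted p = 0.0075). Upk1b rose by 1.07 (adjusted p = 0.014) and was at 1.43 ± 0.27 with the term (adjusted p = 0.26). The deposited calls gave Upk3b and the other called members, Msln and Lrrn4, as absent on all 6 arrays. All 10 mesothelial genes had a positive difference with the term, and 8 of 10 without it. Their summed signal was 558 to 670 on the control arrays, 774 to 955 on the TSR arrays and 498 to 978 on the other 18 liver arrays.

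Kupffer cell and macrophage markers gave 3 rises among 12, again beside 3.05% of all probe sets that rose. Lyz2, the lysozyme of macrophages, went from 294, 350 and 316 to 521, 744 and 646, a log2 difference of 0.98 (adjusted p = 0.016). C1qc, a chain of complement C1q, rose by 0.63 (adjusted p = 0.032) with a pattern of -0.03. Their summed signal was 3214 to 3839 in control mice and 4014 to 5568 in TSR mice. Stellate cell and fibroblast markers gave 2 rises among 13, among them Dcn (decorin), at 1835, 1953 and 1732 in control mice and 2288, 2579 and 2852 in TSR mice. Its log2 difference was 0.48 (adjusted p = 0.022), and 0.48 ± 0.16 with the term (adjusted p = 0.52). Sinusoidal endothelium gave 2 rises among 10, of which Stab2, a scavenger receptor, rose by 0.29 (adjusted p = 0.036). None of these marker lists held a call with the set-apart term, and without TSR replicate 3, 2 mesothelial and 1 Kupffer cell gene were called. Whether the makeup of the pieces of tissue had a part in the other differences was not tested.

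Transcripts of pancreatic acinar cells marked 1 array. The 22 acinar genes summed to 1198 to 1261 signal units on the control arrays, to 1283 and 1202 on TSR replicates 1 and 2, and to 26142 on TSR replicate 3. On that array 21 of the 22 genes had their highest signal of the 6, and the sum was 21.1 times the mean of the other 5. Ctrb1, a chymotrypsinogen, was at 64.7 to 75.5 on the control arrays, at 85.3 and 73.3 on TSR replicates 1 and 2 and at 1576 on replicate 3. Of the 22 genes 1 rose and 1 fell, beside 3.05% and 2.37% of all probe sets. Their median log2 difference of 1.31 was 0.06 without TSR replicate 3. The rise was in Clps (colipase), at 131, 101 and 404 in TSR mice against 53.6 to 68.0 in control mice. It was not called without replicate 3 (adjusted p = 0.092). The fall was in Spink3, a trypsin inhibitor, at 45.8, 36.7 and 120 against 140 to 145, and it was called without replicate 3 too (adjusted p = 0.024). Its pattern was 0.80, and with the set-apart term the log2 difference was -0.48 ± 0.47 (adjusted p = 0.75). Islet markers gave no limma call among 7. An unadjusted p under 0.05 was found for 1 higher and 1 lower, beside 5616 of all 24209 probe sets.

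**Figure D5:**
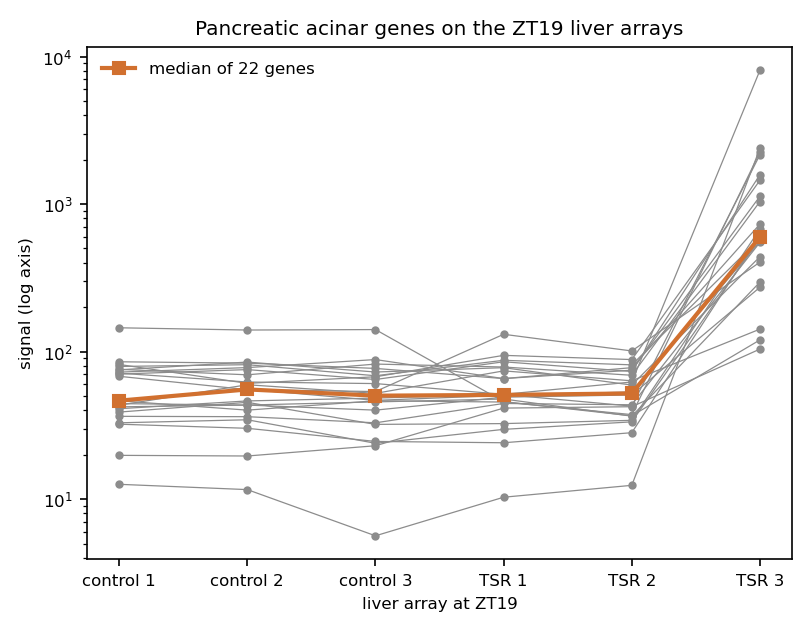
Signal on a log axis of the 22 pancreatic acinar genes (grey lines, 1 per gene) and their median (orange) on the 6 liver arrays of ZT19. The genes are low on 5 arrays and high on TSR replicate 3, where the summed signal was 21.1 times the mean of the others.

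The contrast at ZT19 was also set against the mean of the same contrast at ZT1, ZT7 and ZT13. It differed for 627 probe sets (2.59% of those tested), more positive at ZT19 for 189 and more negative for 438, and 383 of these were among the 1312 calls. Of the 12 steepest rises 5 differed in this way, Snord32a among them at 2.35 (adjusted p = 0.047), and of the 12 deepest falls 10 did. This contrast contains the ZT19 difference by which those genes were ranked and the 1312 were called. The shared counts are therefore not separate support. Rpl26 gave 0.86 (adjusted p = 0.12) and Pklr -0.20 (adjusted p = 0.39). Zfp949 gave -2.45. With the set-apart term 1 probe set was called, and 1627 had an unadjusted p under 0.05 against 5452 without it. Leaving out any 1 array of ZT19 other than TSR replicate 3 left between 1 and 11 calls, and leaving out TSR replicate 3 left 1611.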

How the data were processed

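The deposited signals are linear intensity values that the authors normalised with d-Chip and gave with a detection call per array (a column of kind other, used only as stated). The 2 deposited tables held identical values, and 24209 of 28815 probe sets carry a gene symbol. Symbols were updated through RefSeq where 1 current gene matched (23105 probe sets). The log2 of the signal, with a floor of 1, was fitted with limma 3.58.1 in R 4.3.3 as 8 liver group means over 24 arrays, with Benjamini-Hochberg adjustment over all 24209 probe sets and a threshold of 0.05. For a gene with several probe sets the one with the highest mean signal was used. The script was tested on simulated data. No read depth exists for arrays, whose number limits the precision. Named genes were the markers, the study's genes, the 12 largest rises and falls that met the rule, genes kept in the fits with the set-apart term and without TSR replicate 3, core clock genes and up to 4 genes per list. The arrays that stood apart, the members and the lists were chosen with earlier results of these data known. Alternatives covered filters, scaling, pseudocount, prior, array weights, the methods' t-test, the set-apart term and left-out arrays. A gene of the lists is not reported here. The arrays of epididymal white adipose tissue in the series were not used here.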

Additional observations from a re-analysis of the deposited data

Results flagged for a closer look

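Results were picked for a closer look where the TSR contrast at ZT19 differed, by a limma test of that difference, from the mean TSR contrast at ZT1, ZT7 and ZT13. In all, 627 probe sets met this. The test contains the ZT19 difference, by whose size many of the named genes were chosen. Among the named genes the difference between times was positive, on the log2 scale, for Snord32a (2.35), G430095P16Rik (2.38), Gjb2 (2.56), Snhg1 (2.18), Gm5577 (2.02), Apcs (1.55), Clps (1.73) and Snord87 (0.92). It was negative for Fam186a, listed as 1700030F18Rik (-6.11), Ttc24 (-4.26), Gm10383 (-5.08), Krt36 (-4.61), Olfr216 (-4.69), Ms4a10 (-4.37), Foxf1a (-4.14), Plag1 (-4.25), Magef1 (-4.56) and 4930579J09Rik (-3.88). Smaller negative values were found for Zfp949, listed as 4930422I07Rik (-2.45), Ctdspl (-2.32), Chordc1 (-0.90) and Hnrnpa3 (-0.53). With the set-apart term the difference between times was called for 1 probe set.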

How the results depend on the processing

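Against 1312 calls at ZT19, centring each array on its median gave 756, array weights 7673, the methods' t-test 358, and leaving out the 2 arrays of other groups that stood apart 2461. The set-apart term gave 1 call, and 1 again when TSR replicate 3 was left out with it. Leaving out 1 array of ZT19 at a time gave 34 to 879 calls. Against 627 calls for the difference between times, keeping probe sets above the median signal gave 1142, quantile normalisation 1089, array weights 6783, leaving out the 2 arrays of other groups 1977, the set-apart term 1 and the term without TSR replicate 3 also 1. Leaving out 1 array at a time gave 1 to 1611. The cause of these changes was not tested, apart from the fewer arrays or the added term. The replicate numbers did not pair the arrays (correlations of deviations of 0.03, -0.18 and -0.004), and a replicate block gave 1560 and 1230 calls. With the set-apart term the log2 difference turned positive for Olfr216 (0.03), Foxf1a (0.01), Plag1 (0.30), Magef1 (0.48), 4930579J09Rik (0.48) and Cd180 (0.16), and with the term and without TSR replicate 3 for Dub2a (0.01), Magef1 (0.34) and 4930579J09Rik (0.16). Of 102 named genes, 98 kept their call or lack of one under quantile normalisation, 82 under median centring and 32 with the set-apart term.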
